A study of Mus musculus with 6 samples.

Results

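The proteins that license replication origins, unwind DNA, synthesize the new strands and supply their building blocks are encoded by the 39 mouse genes described here, a set defined by gene symbol for these roles, with no measured value in the rule, although it was proposed with earlier results of these data known. All 39 were found among the 55536 genes with raw counts and among the 34685 genes of the deposited normalized table, and all of them stayed among the 15374 genes left by the filter on low counts. The set holds 6 subunits of the MCM helicase, 4 origin licensing factors, 6 factors of helicase activation, 5 polymerase and primase subunits, 5 genes of the sliding clamp and its loader, 2 genes of flap removal and ligation, 4 of deoxynucleotide synthesis, 4 of chromatin assembly and inheritance, and 3 G1/S regulators.

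RNA was sequenced from HCA-1 tumors of 3 control mice and 3 mice given GOx-DOX-LGP, to ask how the treatment altered the tumor transcriptome. HCA-1 is a murine HCC cell line, and GOx-DOX-LGP is a lipid, gelatin and protamine nanogel loaded with glucose oxidase, which consumes glucose and releases hydrogen peroxide, and with doxorubicin, a topoisomerase poison that damages DNA. In both groups, 1000000 cells were placed under the liver capsule of male C3H mice (C3H/HeNCrNarl in the study's methods) aged 6 to 8 weeks, so all tumors came from 1 cell line grown in a host with its own liver and immune cells. The control mice were untreated, with no empty nanogel, GOx or DOX alone in this series, and the treated mice were dosed intravenously on days 18, 19 and 20 according to the labels. The same labels date the transcriptome analysis to day 17, 3 h after dosing, which conflicts with those days. For tumors taken for PCR, the study's methods give the same dosing days and a harvest on the day after the last dose, but they do not say this of the sequenced tumors, so the interval between the last dose and the sequenced RNA remains uncertain. The libraries are numbered 5, 6 and 7 in the control group and 1, 2 and 5 in the GOx-DOX-LGP group, and since the labels say no more about the mice behind them, p-values measure only the spread between these libraries.

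Before S phase, ORC, CDC6 and CDT1 load the MCM helicase onto origins while CDK activity is low. At the G1/S boundary cyclin E with its kinase and the E2F transcription factors switch on the genes for replication proteins, CDC45 and GINS join MCM to form the active helicase, and polymerases, PCNA and its loader RFC copy the DNA. Most of these genes are transcribed in cycling cells and are low in resting cells, and hepatocytes of an adult liver are mostly resting.

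Controls 6 and 7 stood apart from the other 4 libraries. Raw counts summed to between 15529940 and 18401178 per library, but Alb, which encodes serum albumin and marks hepatocytes, took 5.58% and 7.28% of them in controls 6 and 7, against 0.0437% in control 5 and 0.0888% to 0.234% in the treated tumors. The 15 of 16 hepatocyte markers that were matched, Ttr among them, summed to 659, 129888 and 216494 CPM in controls 5, 6 and 7 and to 1397 to 3564 CPM in the treated tumors, where CPM are counts divided by library size and scaled with TMM, a normalization that makes libraries of different composition comparable. Ttr, a transport protein made by hepatocytes, was at 34.2, 5460 and 9255 CPM in the controls and at 54.5 to 214 CPM in the treated tumors. Over all genes the Pearson correlation of log2 CPM was 0.969 between controls 6 and 7, 0.730 and 0.659 between each of them and control 5, and 0.966 to 0.975 between control 5 and the treated tumors. Markers of liver tumor and progenitor cells summed to 7047, 583 and 231 CPM in controls 5, 6 and 7 and to 4761 to 7147 CPM in the treated tumors. Spp1 (osteopontin) gave most of this signal, and the list was split. Of its 8 markers kept by the filter, 4 had a log2 fold change of treated over control above 0 and 4 below. Afp, the classical HCC marker, was low in every library and ran against Spp1. It was at 4.91, 10.3 and 13.2 CPM in the controls and 2.25 to 4.94 CPM in the treated tumors. Dlk1 was at 0 in all controls and in treated tumors 2 and 5. In treated tumor 1 it was at 0.0989 CPM, less than the 0.148 CPM that 3 counts were worth there. The comparison was therefore repeated without control 5 and, as a choice made after values had been seen, without controls 6 and 7.

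Replication genes were about as high in control 5 as in the treated tumors, and were lower in control 6 and lowest in control 7. The mean log2 CPM of the 39 genes was 4.85 in control 5, 3.79 in control 6 and 2.82 in control 7, beside 4.83, 4.51 and 4.90 for treated tumors 1, 2 and 5, so control 5 lay within the range of the treated group while controls 6 and 7 lay far below it. Together they took 0.199%, 0.0597% and 0.0318% of all counts in the controls and 0.196%, 0.156% and 0.205% in the treated tumors. The hepatocyte markers ran the other way, with a mean log2 CPM of 3.52, 11.65 and 12.43 in the controls and 6.27, 4.74 and 5.35 in the treated tumors. A fit with the mean of the hepatocyte markers as a covariate is given below, but the cause of the differences was not tested. In whole tumor RNA, fewer cycling cells and less of these transcripts per cell cannot be told apart.

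**Figure D1:**
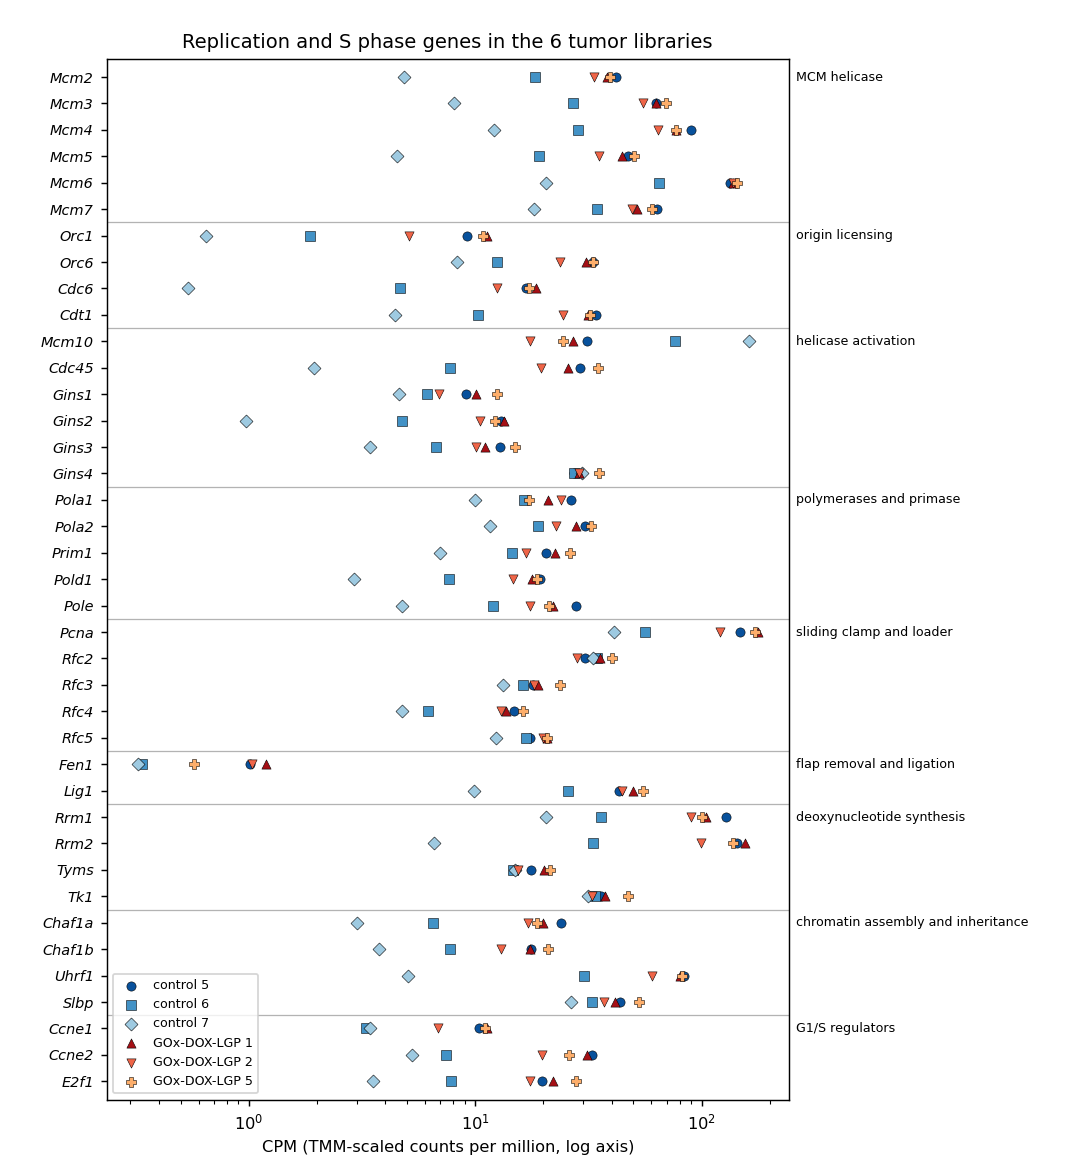
CPM (TMM-scaled, log axis) of each of the 39 replication and S phase genes, ordered by role, with 1 symbol per tumor library and no averaging. For most genes control 7 and control 6 lie to the left and control 5 lies among the 3 GOx-DOX-LGP tumors, while Mcm10 shows the opposite order and Gins4, Rfc2, Tyms and Tk1 show all 6 libraries close together.

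Across the 39 genes, 34 ran in the order control 7 below control 6 below control 5, an order found in 34.5% of all genes, and the exceptions were Ccne1, Gins4, Mcm10, Rfc2 and Tyms. Both controls 6 and 7 lay below all treated tumors for 35 of them, against 37.2% of all genes. Control 5 lay within the range of the treated tumors for 22, above all of them for 12 and below all of them for 5, and the shares over all genes were 45.6%, 28.4% and 26%. The level in control 5 exceeded that in control 7 by a median of 4.35 times, from 0.192 for Mcm10 to 31.3 for Cdc6, whereas the mean of the treated tumors was between 0.725 and 1.18 times the level in control 5 for every one of the 39 genes. Within the treated group the highest tumor exceeded the lowest by a median of 1.40 times, and tumor 2 was the lowest of the 3 for 36 genes, against 39.1% of all genes. Tumor 2 also had the highest summed macrophage markers of the 6 libraries, at 3556 CPM against 1308 and 1853 CPM in tumors 1 and 5 and 1359, 960 and 611 CPM in controls 5, 6 and 7. Its summed fibroblast markers were the highest of the 6 libraries too, at 6873 CPM against 4569 and 2186 CPM in tumors 1 and 5. In controls 5, 6 and 7 these summed to 5709, 1726 and 1406 CPM. Whether either list bears on the lower replication genes of tumor 2 was not tested.

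**Figure D2:**
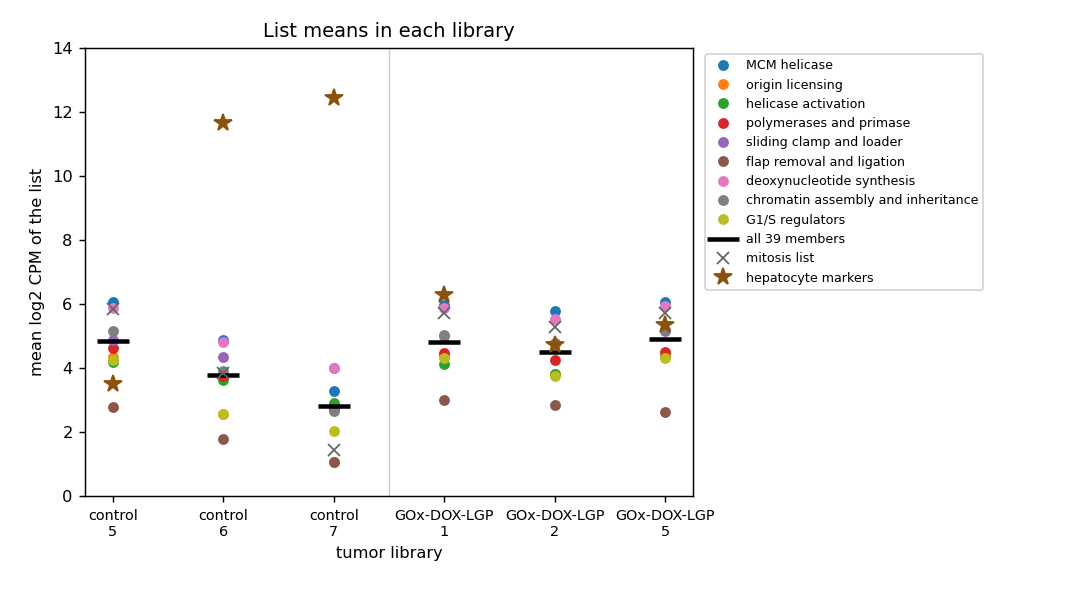
Mean log2 CPM of the 9 roles, of all 39 genes (black bars), of 22 mitosis genes (crosses) and of 15 hepatocyte markers (stars) in each tumor library. Among the controls the replication and mitosis means are highest in control 5 and lowest in control 7, while the hepatocyte mean is highest in controls 6 and 7. The replication and mitosis means of the 3 GOx-DOX-LGP tumors sit close to control 5, and their hepatocyte means (6.27, 4.74 and 5.35) lie above that of control 5 (3.52).

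No replication gene passed the test of treated against control tumors. In the quasi-likelihood fit of edgeR to all 6 libraries, 0 of the 39 genes and 0 of 15374 genes tested (0%) had a Benjamini-Hochberg adjusted p under 0.05. An unadjusted p under 0.05 was reached by 2685 genes (17.5%) and by 1 of the 39, Mcm10, which was lower in the treated group. The fitted log2 fold change of treated over control was above 0 for 38 of the 39 genes, with a median of 0.73 and a range from -1.97 to 1.18, while 51.1% of all genes were above 0 and their median was 0.02. Groups did not overlap for 5 genes, Mcm6, Rfc3, Rfc5 and Lig1 (4 higher in treated tumors, against 8.87% of all genes) and Mcm10 (lower, against 8.31%), while 17.2% of all genes had groups that did not overlap in either direction.

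The calls on these genes depended on which control libraries entered the fit. Without control 5, 29 of the 39 genes passed the threshold (edgeR, adjusted over 16249 genes), 28 of them higher in treated tumors and Mcm10 lower, in a fit in which 47.7% of all genes were called and 22.2% were called higher, and the median log2 fold change of the 39 was 1.56. Without controls 6 and 7, where control 5 alone was set against 3 treated tumors and is assumed to vary as they do, 0 of the 39 and 0 of all genes were called, 921 genes (5.47%) and none of the 39 had an unadjusted p under 0.05, 14 genes were above 0 and 25 below, and the median was -0.084. With DESeq2, 1739 of 16513 genes (10.5%) were called and Mcm10 was the only one of the 39 (adjusted p = 0.0334), and only 0.684% of genes were called higher. Weighting each library by its quality in limma voom called 33 of the 39, 32 of them higher. It called 60.2% of all genes, and 29.2% were called higher. With the hepatocyte mean as a covariate in edgeR none was called and the median was 0.29.

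**Figure D3:**
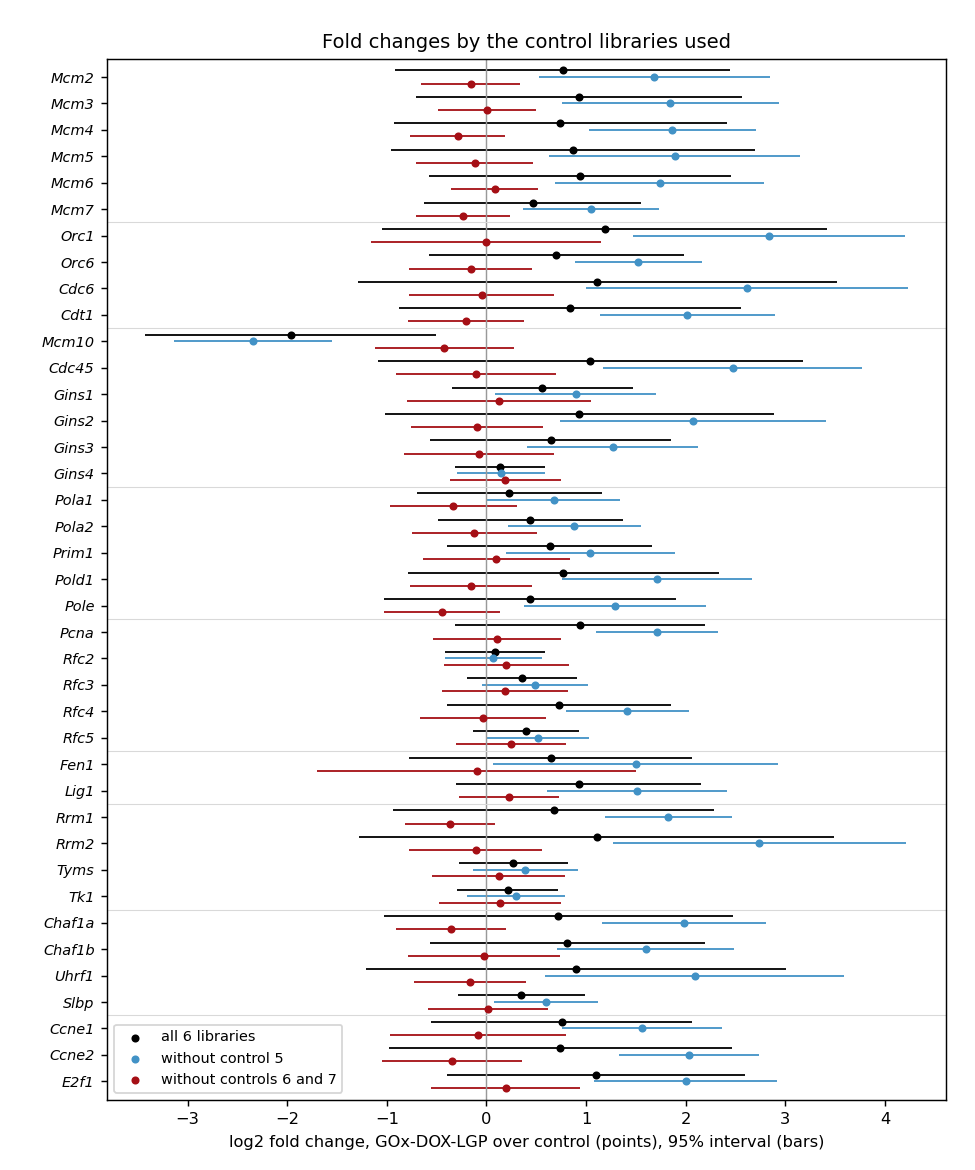
Log2 fold change of GOx-DOX-LGP over control for each gene, with its 95% interval, fitted by edgeR on all 6 libraries (black), without control 5 (blue) and without controls 6 and 7 (red). The blue values lie to the right of the black ones for most genes and the red values lie around 0, with medians of 1.56 (blue), 0.73 (black) and -0.084 (red).

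The upstream sequence of these genes was read for the words by which E2F and related complexes are usually recognized, since most of the genes ran in the same order across libraries. RefSeq (GRCm38.p6) windows from 250 bases before to 50 bases after a transcription start were matched for 32 of the 39 genes, and were searched on both strands for the E2F words TTTGGCGC, TTTCCCGC, TTTGCCGC and TTTCGCGC, for the CCAAT box (CCAAT), and for the CHR words TTTGAA and TTCGAA, an element typical of genes of mitosis. An E2F word stood in 13 of the 32 (40.6%), against 2.6% of 27025 genes and 4.9% of the 8543 genes with a window of at least 60% G and C. The median G and C content was 62.2% over the 32 genes, with the highest window of each gene, and 52.7% over all single windows. These medians are not of the same kind, since the first takes the highest window where a gene has several. CCAAT stood in 59.4% against 41.1% of all genes and 37.8% of the GC-rich ones, and a CHR word in 18.8%, against 21.7% of all genes but 11% of the GC-rich ones, while in the mitosis list 15 of 19 matched genes held a CHR word and 1 held an E2F word. The following stretches of 60 bases, all outside annotated exons and printed 5′ to 3′ on the strand of the gene with E2F words in capitals, show the words in 5 genes of 4 roles, with Mcm10 and Tyms, which departed from the common order of libraries and hold none of the words, for comparison.
Mcm5: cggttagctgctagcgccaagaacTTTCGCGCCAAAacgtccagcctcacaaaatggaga
Mcm6: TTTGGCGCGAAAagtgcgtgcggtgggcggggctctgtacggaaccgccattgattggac
Cdc6: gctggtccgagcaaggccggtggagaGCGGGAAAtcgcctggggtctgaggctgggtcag
Pola1: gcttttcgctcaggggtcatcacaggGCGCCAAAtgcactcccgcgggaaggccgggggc
Uhrf1: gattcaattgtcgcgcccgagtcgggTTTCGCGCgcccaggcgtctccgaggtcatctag
Mcm10: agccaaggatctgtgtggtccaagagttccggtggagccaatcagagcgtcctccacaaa
Tyms: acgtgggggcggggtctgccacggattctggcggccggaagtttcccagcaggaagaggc
They lie at chr8:75109332-75109391 (Mcm5, plus strand), chr1:128359756-128359815 (Mcm6, minus strand), chr11:98907987-98908046 (Cdc6, plus strand), chrX:93632260-93632319 (Pola1, minus strand), chr17:56304102-56304161 (Uhrf1, plus strand), chr2:5012792-5012851 (Mcm10, minus strand) and chr5:30073626-30073685 (Tyms, minus strand) in GRCm38.p6. The stretches of Cdc6 and Uhrf1 are upstream of the RefSeq start used for the window, but not of the GENCODE gene. GENCODE starts these genes earlier, at chr11:98907801 and chr17:56303321, so both stretches lie within the gene, outside its exons. In Mcm5 and in Mcm6 a pair of words on opposite strands share bases, so that a single run is counted as both. The median ratio of control 5 to control 7 was 6.64 for the 13 genes with an E2F word (1.36 to 31.3) and 3.13 for the 19 without (0.192 to 21.8), and both ranges overlap widely. A match is only a match of letters, and Rrm2 and E2f1, 2 genes known to be bound by E2F, hold none of these exact words in their windows.

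**Figure D4:**
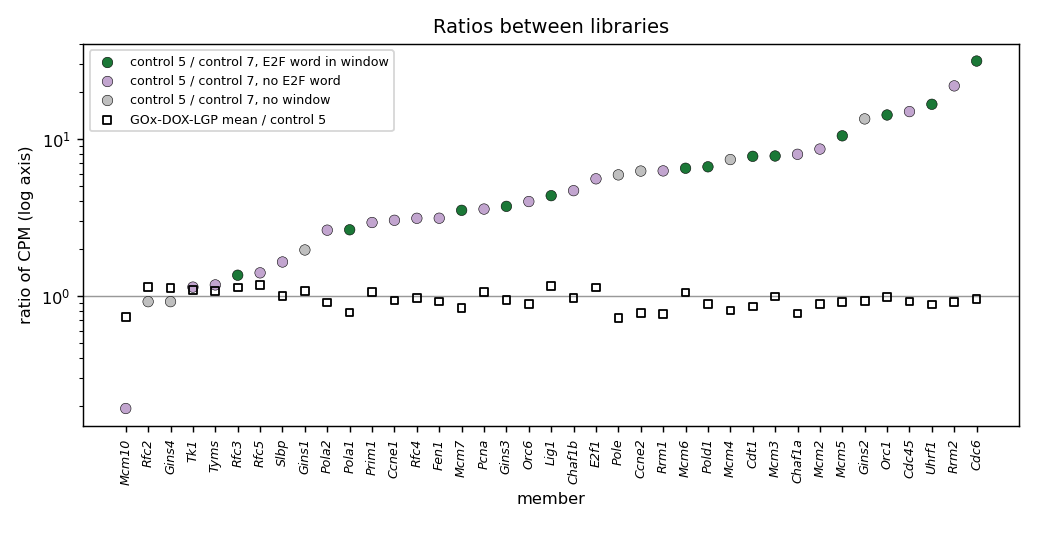
For each of the 39 genes, the ratio of CPM in control 5 to control 7 (circles, colored by whether an E2F word stands in the 300-base window) and the ratio of the mean of the 3 GOx-DOX-LGP tumors to control 5 (open squares), on a log axis. The squares stay between 0.725 and 1.18, while the circles run from 0.192 for Mcm10 to 31.3 for Cdc6.

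The 6 subunits of the MCM helicase, the ring that unwinds parental DNA, followed the common order of libraries in full. Values are given in the order controls 5, 6 and 7, then treated tumors 1, 2 and 5. Mcm6 was at 133, 64.9 and 20.4 CPM in controls and 138, 138 and 143 CPM in treated tumors. Mcm4 was at 89.8, 28.4 and 12.2 CPM in controls and 76.96, 64.4 and 76.8 CPM in treated tumors. Mcm2 was at 41.7, 18.4 and 4.84 CPM in controls and 38.1, 33.3 and 39.5 CPM in treated tumors. In each of these genes control 7 was the lowest library, and the treated tumors differed little among themselves. Mcm6 (ENSMUSG00000026355, chr1:128331590-128359664, minus strand, GRCm38) was the only subunit whose groups did not overlap, with control 5 just under the lowest treated tumor, and its log2 fold change was 0.94 ± 0.62 (SE; edgeR adjusted p = 0.439). Mcm5 was at 47.3, 19.1 and 4.52 CPM in controls and 44.4, 35.2 and 50.1 CPM in treated tumors. Mcm3 was at 62.8, 27.1 and 8.07 CPM in controls and 62.8, 55.01 and 69.3 CPM in treated tumors. Mcm7 was at 63.8, 34.7 and 18.2 CPM in controls and 51.7, 49.2 and 60.1 CPM in treated tumors. Mcm7 had the smallest log2 fold change of the 6, 0.46 ± 0.45, and its counts are uncertain, since it shares exons with Cops6 and Ap4m1 on the opposite strand, and with the microRNA genes Mir25 and Mir93 on its own strand, and whether the counting used strand is not given in the sources used here. The same holds for 14 more of the 39 genes with exons that overlap a gene on the opposite strand, among them Orc1, Orc6, Gins2, Pole, Lig1, Chaf1a, Slbp and Ccne2, and 24 genes overlap none. Without control 5 all 6 passed in edgeR, with log2 fold changes from 1.05 (Mcm7) to 1.89 (Mcm5). That fit called 22.2% of all genes higher and 47.7% in either direction, the background for every call without control 5 given below. Without controls 6 and 7 none did, and the values ran from -0.29 (Mcm4) to 0.085 (Mcm6).

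The 4 licensing factors, which load MCM onto origins, included some of the widest gaps between control libraries, with control 5 at 31.3 times control 7 for Cdc6 and at 14.2 times for Orc1. Cdc6 (ENSMUSG00000017499, chr11:98907801-98923940, plus strand), the ATPase that joins ORC at origins, was at 16.8, 4.66 and 0.538 CPM in controls and 18.6, 12.5 and 17.2 CPM in treated tumors. Orc1, the largest ORC subunit, was at 9.17, 1.87 and 0.646 CPM in controls and 11.2, 5.09 and 10.8 CPM in treated tumors. In control 7 they rested on only 5 and 6 raw counts, close to the 3 counts taken as the floor, whereas control 5 was among the treated tumors. Cdt1, the partner of CDC6 in loading, was at 34.2, 10.3 and 4.41 CPM in controls and 31.5, 24.3 and 32.1 CPM in treated tumors. Orc6, the smallest ORC subunit, was at 33.1, 12.5 and 8.29 CPM in controls and 30.9, 23.8 and 33.2 CPM in treated tumors. Over all libraries the log2 fold changes were 1.18 ± 0.92 for Orc1, the highest value among the 39 genes, and 1.11 ± 0.99 for Cdc6, with standard errors almost as large as the values and adjusted p of 0.494 and 0.540 in edgeR. Without control 5 all 4 passed, from 1.52 ± 0.27 for Orc6 to 2.84 ± 0.58 for Orc1, and without controls 6 and 7 all 4 were slightly below 0 (-0.21 for Cdt1 at the lowest) and none passed.

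Among the factors of helicase activation was Mcm10, the only one of the 39 genes with a log2 fold change below 0. Mcm10 (ENSMUSG00000026669, chr2:4989714-5012791, minus strand), a scaffold that helps to start the loaded helicase and is not itself a subunit of the ring, was at 31.2, 76.7 and 162 CPM in controls and 27.04, 17.5 and 24.5 CPM in treated tumors. Control 7, which was the lowest library for 34 of the 39 genes, had the most Mcm10, and even control 5 was above all treated tumors. The log2 fold change was -1.97 ± 0.60 (95% interval -3.42 to -0.51; edgeR adjusted p = 0.247), and it was -2.34 ± 0.34 without control 5 (adjusted p = 0.00148), -0.42 without controls 6 and 7 and -0.85 with the hepatocyte mean as a covariate, where neither of the last 2 passed. Its exons overlap no other annotated gene, and the nearest protein-coding genes are Ucma, 3965 bases downstream, and Optn, 7850 bases upstream on the same strand. Optn, named here after its values had been seen, was at 49.0, 101 and 140 CPM in controls and 52.0, 46.7 and 43.8 CPM in treated tumors, an order of controls like that of Mcm10. Whether the levels of these neighbors are linked was not tested.

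CDC45 and the GINS complex complete the active helicase, and their genes were split. Cdc45 was at 28.9, 7.72 and 1.94 CPM in controls and 25.7, 19.5 and 34.8 CPM in treated tumors. Gins2 was at 12.99, 4.75 and 0.969 CPM in controls and 13.3, 10.5 and 12.3 CPM in treated tumors. Gins3 was at 12.8, 6.70 and 3.44 CPM in controls and 11.02, 10.1 and 14.98 CPM in treated tumors. In these genes control 7 was lowest and control 5 lay with the treated tumors. Gins1 was at 9.08, 6.11 and 4.63 CPM in controls and 10.03, 6.91 and 12.4 CPM in treated tumors, with narrower gaps between the controls. Gins4 was at 27.3, 27.3 and 29.7 CPM in controls and 28.7, 28.7 and 35.3 CPM in treated tumors and thus almost level in the controls. Its log2 fold change of 0.13 ± 0.19 (95% interval -0.32 to 0.59) was 0.15 without control 5. Without control 5, Cdc45 (2.47 ± 0.55), Gins2 (2.07 ± 0.57) and Gins3 (1.27 ± 0.37) passed in edgeR, and Gins1 (0.89 ± 0.34, adjusted p = 0.0661) and Gins4 did not. Cdc45 shares exons with Ufd1 on the opposite strand.

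The 5 polymerase and primase genes, whose proteins lay primers and synthesize the new strands, ran in the common order of controls. Pold1, the catalytic subunit of polymerase delta on the lagging strand, was at 19.3, 7.63 and 2.91 CPM in controls and 17.9, 14.7 and 18.7 CPM in treated tumors. Pole, that of polymerase epsilon on the leading strand, was at 27.9, 12.04 and 4.73 CPM in controls and 22.1, 17.4 and 21.3 CPM in treated tumors. Pole had the lowest treated level relative to control 5 of the 39 genes, 0.725 times, and its log2 fold change turned from 0.44 over all libraries to -0.45 without controls 6 and 7 and -0.04 with the hepatocyte covariate. Pola1, the catalytic subunit of polymerase alpha, was at 26.4, 16.5 and 10.01 CPM in controls and 20.9, 24.005 and 17.2 CPM in treated tumors, with control 6 just under tumor 5. Pola2, its accessory subunit, was at 30.5, 18.996 and 11.6 CPM in controls and 27.9, 22.7 and 32.5 CPM in treated tumors. Prim1, the primase that lays RNA primers, was at 20.5, 14.5 and 6.99 CPM in controls and 22.5, 16.7 and 26.2 CPM in treated tumors. Without control 5, Pold1 (1.71 ± 0.41), Pole (1.29 ± 0.39), Prim1 (1.04 ± 0.36) and Pola2 (0.88 ± 0.28) passed, and Pola1 (0.67 ± 0.28, edgeR adjusted p = 0.0884) did not.

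The sliding clamp gene and the genes of its loader had unlike patterns. Pcna, whose protein ring holds the polymerases on DNA, had the highest level per length of the 39 genes, a mean of 49.7 CPM per kb of exon over the 6 libraries, and was at 147, 56.4 and 41.2 CPM in controls and 177, 121 and 172 CPM in treated tumors. Its log2 fold change was 0.94 ± 0.52 (edgeR adjusted p = 0.372) and 1.71 ± 0.26 without control 5 (adjusted p = 0.00184), and 19.1% of its stretches of 50 bases also occur in the pseudogene Pcna-ps2. Among the loader subunits Rfc4, at 14.8, 6.19 and 4.73 CPM in controls and 13.6, 12.98 and 16.3 CPM in treated tumors, had the same order of controls. Rfc3 and Rfc5 also ran in this order but with narrower gaps, and Rfc2 did not. Rfc2 was at 30.5, 34.4 and 33.1 CPM in controls and 35.5, 28.1 and 40.4 CPM in treated tumors. Rfc3 was at 17.9, 16.3 and 13.2 CPM in controls and 18.98, 18.1 and 23.7 CPM in treated tumors. Rfc5 was at 17.4, 16.7 and 12.4 CPM in controls and 20.7, 19.9 and 20.7 CPM in treated tumors, and both Rfc3 and Rfc5 were higher in every treated tumor than in every control. The gap was small, 0.36 ± 0.23 for Rfc3 (chr5:151642756-151651242, minus strand) and 0.40 ± 0.22 for Rfc5 (chr5:117378103-117389047, minus strand), with edgeR adjusted p of 0.426 and 0.371. Neither passed without control 5 (adjusted p = 0.116 and 0.0861), nor did Rfc2, for which the 95% interval over all libraries was -0.42 to 0.59. Rfc4 shares exons with Eif4a2, and Rfc2 and Rfc5 with Lat2 and Wsb2, on the opposite strand.

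Ligation and flap removal finish the lagging strand. Lig1 (ENSMUSG00000056394, chr7:13277283-13311433, plus strand), the ligase that seals Okazaki fragments, was at 43.1, 25.7 and 9.90 CPM in controls and 49.7, 44.7 and 55.4 CPM in treated tumors, with every treated tumor above control 5, and its log2 fold change was 0.93 ± 0.51 (edgeR adjusted p = 0.371) and 1.51 ± 0.38 without control 5 (adjusted p = 0.0158). Fen1, the nuclease that trims the flaps, was at 1.01, 0.339 and 0.323 CPM in controls and 1.19, 1.03 and 0.572 CPM in treated tumors, the lowest of the 39 genes. It rested on 3 to 24 raw counts per library, where 3 counts were taken as the floor. It shares exons with Tmem258 and Gm10143 on the opposite strand, so its level is uncertain. Fen1 did not pass in edgeR over all libraries (adjusted p = 0.545) or without control 5 (adjusted p = 0.0789). It was called higher in limma voom with quality weights (log2 fold change 1.45, adjusted p = 0.0192), where 60.2% of all genes were called and 29.2% called higher.

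In deoxynucleotide synthesis the ribonucleotide reductase genes differed widely between control libraries and the thymidylate genes little. Rrm2, the subunit that limits the enzyme in S phase, was at 143, 33.2 and 6.56 CPM in controls and 155, 99.8 and 138 CPM in treated tumors. Rrm1, the large subunit, was at 128, 36.1 and 20.4 CPM in controls and 104, 90.2 and 101 CPM in treated tumors. Without control 5 the log2 fold changes were 2.74 ± 0.63 for Rrm2 (edgeR adjusted p = 0.0104) and 1.83 ± 0.27 for Rrm1 (adjusted p = 0.00172), and without controls 6 and 7 they were -0.11 and -0.36. Tyms, thymidylate synthase, was at 17.6, 14.7 and 14.96 CPM in controls and 20.2, 15.5 and 21.3 CPM in treated tumors. Tk1, the thymidine kinase of the salvage route, was at 36.02, 33.8 and 31.6 CPM in controls and 37.6, 32.9 and 47.2 CPM in treated tumors. For both, the 6 libraries lay within a narrow band, and the 95% intervals of the log2 fold change were -0.27 to 0.81 and -0.29 to 0.72 over all libraries. Tk1 shares exons with Afmid on the opposite strand, and 5.25% of the stretches of Tyms also occur in other genes, Tyms-ps among them, so their counts are uncertain.

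The genes that rebuild chromatin behind the fork ran in the common order. Uhrf1, which recruits the maintenance DNA methyltransferase to hemimethylated sites, was at 84.01, 30.2 and 5.06 CPM in controls and 79.9, 60.5 and 82.3 CPM in treated tumors. Chaf1a, the large subunit of the CAF-1 histone chaperone, was at 24.04, 6.53 and 3.01 CPM in controls and 19.9, 17.1 and 18.8 CPM in treated tumors. Chaf1b, its middle subunit, was at 17.6, 7.72 and 3.77 CPM in controls and 17.4, 13.03 and 21.02 CPM in treated tumors. These 3 passed without control 5, with log2 fold changes of 2.09 ± 0.64, 1.98 ± 0.35 and 1.60 ± 0.38 (edgeR adjusted p = 0.0313, 0.00363 and 0.0118), and none passed with all libraries. Slbp, which binds the stem-loop of histone mRNA, was flatter at 43.7, 32.7 and 26.6 CPM in controls and 41.6, 37.04 and 52.9 CPM in treated tumors and did not pass without control 5 (0.59 ± 0.22, adjusted p = 0.0613). Of the stretches of Uhrf1, 15.4% also occur in other annotated genes.

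Of the 3 G1/S regulators, E2f1 and Ccne2 ran in the common order of controls, and Ccne1 had controls 6 and 7 nearly level. E2f1, the activating transcription factor, was at 19.8, 7.80 and 3.55 CPM in controls and 21.995, 17.4 and 27.8 CPM in treated tumors, and had a log2 fold change of 1.10 ± 0.62 (edgeR adjusted p = 0.377). Ccne1 was at 10.4, 3.31 and 3.44 CPM in controls and 11.3, 6.86 and 11.1 CPM in treated tumors. Ccne2 was at 32.9, 7.46 and 5.27 CPM in controls and 31.1, 19.7 and 25.9 CPM in treated tumors. This pair encodes the E cyclins, which drive CDK2 into S phase. In all 3, controls 6 and 7 lay below every treated tumor and control 5 did not. Without control 5 they passed, at 1.997 ± 0.39, 1.56 ± 0.34 and 2.03 ± 0.30, and without controls 6 and 7 the values were 0.19, -0.084 and -0.35, none of which passed.

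By role, the median log2 fold change without control 5 was highest for origin licensing (2.31), G1/S regulators (1.997), the MCM helicase and chromatin genes (both 1.79), and lower for flap removal and ligation (1.505), deoxynucleotide synthesis (1.11), helicase activation (1.08), polymerases and primase (1.04) and the clamp and its loader (0.52). With all 6 libraries the role medians lay between 0.40 (clamp and loader) and 0.98 (origin licensing), and no role had a gene past the threshold. Without control 5, where 22.2% of all genes were called higher, every gene of origin licensing (4 of 4), the MCM helicase (6 of 6) and the G1/S regulators (3 of 3) was called higher, against 4 of 5 polymerase and primase genes, 3 of 4 chromatin genes, 3 of 6 helicase activation genes, 2 of 4 genes of deoxynucleotide synthesis, 2 of 5 of the clamp and loader, and 1 of 2 of flap removal and ligation. Per kb of exon, the highest mean levels were those of Pcna (49.7 CPM per kb), Rrm2 (34.6), Mcm6 (22.8) and Gins4 (21.9), and the lowest those of Fen1 (0.307) and Pole (1.58), with the caveat that lengths count every annotated exon of a gene.

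Most other genes of the pathway also had log2 fold changes above 0 that did not pass the test. Of 47 other replication genes that were kept, 40 had a log2 fold change above 0 with a median of 0.53, 0 were called in edgeR over all libraries, and 28 were called higher and 4 lower without control 5, a fit in which 22.2% of all genes were called higher and 47.7% in either direction, the background for the lists that follow too. The largest log2 fold change was that of Asf1b, a histone chaperone (1.22), at 17.3, 5.77 and 1.08 CPM in controls and 20.4, 13.9 and 22.6 CPM in treated tumors. Next was Dna2, a nuclease and helicase (-1.14), at 12.5, 23.6 and 25.4 CPM in controls and 9.24, 6.96 and 11.7 CPM in treated tumors, in which controls 6 and 7 were highest as in Mcm10. Dut, which removes dUTP (1.09), was at 47.9, 16.3 and 11.1 CPM in controls and 50.1, 39.3 and 70.8 CPM in treated tumors. Of 15 other G1/S regulators, 13 were above 0 with a median of 0.37, 0 were called, and 7 were called higher without control 5, and the largest were Ccna2 (0.98), Ccnd1 (0.91) and Cdk4 (0.69). Of 11 cell cycle inhibitors and quiescence genes kept of 12 listed, 8 were above 0, 0 were called, and 6 were called higher and 2 lower without control 5. The largest there were Cdkn1c (-2.93), a CDK inhibitor at 0.263, 4.49 and 6.24 CPM in controls and 0.198 to 0.784 CPM in treated tumors, Tob1 (-1.35), an antiproliferative factor, and Samhd1 (1.14), which degrades deoxynucleotides. All 22 mitosis genes were above 0 with a median of 0.90, 0 were called, and 21 were called higher without control 5, led by Ube2c (1.31), Cdk1 (1.24) and Ccnb2 (1.17). Their mean log2 CPM was 5.86, 3.86 and 1.44 in the controls and 5.71, 5.29 and 5.74 in the treated tumors, beside the 4.85, 3.79 and 2.82 of the replication genes in the controls.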

How the data were processed

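RNA of 6 HCA-1 tumors (3 control, 3 GOx-DOX-LGP) was sequenced from poly(A) libraries. The authors deposited raw counts per gene, without normalization or pooling, and signal values that are the same counts divided by 1 size factor per library (0.532 to 1.32). The paper's methods name TopHat and HTSeq, while the submitters' processing notes list Trimmomatic 0.38, HISAT2 2.1.0 and featureCounts 2.0.0, so the aligner and counter are uncertain. The genome build and the use of strand are not given in the sources used here.

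The raw counts were analysed in R 4.3.3 with edgeR 4.0.16 (filterByExpr, TMM, a quasi-likelihood fit to the 6 libraries with group as the only term, Benjamini-Hochberg adjustment over all 15374 genes kept, threshold 0.05), and log2 CPM used a prior count of 2. DESeq2 1.42.0, limma 3.58.1 with voom and sample quality weights, other scalings and filters, the mean of 15 hepatocyte markers as a covariate and leaving out libraries served as alternatives. The fits were tested on simulated counts, but no outcome of that test is reported here. Library totals of 15529940 to 18401178 counts set the precision, and members had 3 to 3584 raw counts per library. With 3 libraries against 3, exact permutation tests cannot give a p under 0.1, so none is reported. Gene positions and exon overlaps are from GENCODE M21 (GRCm38), shared sequence was counted in stretches of 50 bases of its transcripts, and upstream windows are from RefSeq (GRCm38.p6).

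The genes, gene lists and markers were chosen with earlier results of these data known. Named genes are all 39 members, the 3 largest log2 fold changes of each other list, Alb and Ttr, and the most abundant gene of each other marker list. Optn, Dcn and Emcn were added after their values were seen. Afp and Dlk1, from the list of liver tumor and progenitor markers, were also named outside this choice.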

Additional observations from a re-analysis of the deposited data

How the results depend on the processing

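Over all genes 0 passed with edgeR under every scaling and filter tried and with the hepatocyte covariate, and 0 of the 39 replication genes did. DESeq2 called 1739 genes and 1 of the 39, and limma voom with quality weights called 9254 and 33. When each library was left out in turn, 0 to 7745 genes and 0 to 29 of the 39 were called, the median log2 fold change of the 39 lay between 0.34 and 1.56, and 5 to 36 of them had groups that did not overlap. The highest of these values came without control 5, where 72.0% of all genes did not overlap, and 15 (all genes 28.8%) did not overlap without GOx-DOX-LGP tumor 2. With housekeeping gene factors 2 (all genes 17.1%) did not overlap. Leaving out controls 6 and 7 together, chosen after values had been seen, turned the median to -0.084, and 17 (all genes 54.2%) did not overlap. It also turned 24 genes below 0, namely Mcm2 (-0.16), Mcm4 (-0.29), Mcm5 (-0.12), Mcm7 (-0.24), Orc1 (-0.0056), Orc6 (-0.16), Cdc6 (-0.050), Cdt1 (-0.21), Cdc45 (-0.10), Gins2 (-0.095), Gins3 (-0.077), Pola1 (-0.34), Pola2 (-0.12), Pold1 (-0.16), Pole (-0.45), Rfc4 (-0.034), Fen1 (-0.10), Rrm1 (-0.36), Rrm2 (-0.11), Chaf1a (-0.36), Chaf1b (-0.027), Uhrf1 (-0.16), Ccne1 (-0.084) and Ccne2 (-0.35). Pola1 (-0.14) and Pole (-0.040) turned below 0 with the hepatocyte covariate, and Pola1 ran from -0.054 to 0.67 when single libraries were left out. Beyond the libraries left out, the cause was not tested. Under library totals alone the median of all genes was 0.51 and that of the 39 was 0.99. No paired analysis was possible because the groups share only the number 5. A count of 3, taken as the floor, was worth 0.132 to 0.323 CPM, and 7 of the 39 genes had fewer than 30 counts in some library (Orc1, Cdc6, Cdc45, Gins2, Pold1, Fen1 and Chaf1a), so their low control values are imprecise.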

Other observations

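Other cell types also differed between libraries, in lists of markers that the replication genes do not include. All 6 endothelial markers were detected and summed to 120, 215 and 246 CPM in controls 5, 6 and 7 and to 86.4 to 105 CPM in GOx-DOX-LGP tumors, with Kdr, the VEGF receptor, at 18.7, 81.7 and 105 CPM in controls and 12.6 to 16.1 CPM in treated tumors. Of these markers, 5 had log2 fold changes below 0 and 1, Emcn, was above 0. Emcn, chosen after its values were seen, was at 16.7, 7.89 and 11.2 CPM in controls and 12.3 to 16.7 CPM in treated tumors. The 5 erythroid markers summed to 1.71, 112 and 201 CPM in the controls and to 1.67 to 4.37 CPM in treated tumors, with Alas2 at 1.05, 95.1 and 185 CPM in the controls and 1.08 to 1.93 CPM in treated tumors. The 10 T cell markers summed to 120, 71.7 and 38.4 CPM in the controls and to 154 to 237 CPM in treated tumors, and Cd8a was at 25.4, 10.1 and 5.60 CPM in the controls and 28.8 to 36.6 CPM in treated tumors. The 5 B cell markers were low everywhere (2.06 to 7.72 CPM in sum), with Cd79a at 0.572 to 2.63 CPM. Macrophage markers were led by Lyz2, at 288 to 760 CPM in the controls and 739 to 2262 CPM in treated tumors. Fibroblast markers summed to 5709, 1726 and 1406 CPM in the controls and to 2186 to 6873 CPM in treated tumors, with Col1a1 at 2281, 334 and 223 CPM in the controls and 806 to 2260.1 CPM in treated tumors. Dcn, chosen after its values were seen, ran the other way in the controls, at 121, 447 and 515 CPM. None of these genes passed in edgeR over all 6 libraries. DESeq2 called 5 of the 10 T cell and 2 of the 7 macrophage markers higher (0.684% of all genes). It called 3 of the 6 endothelial markers lower, Kdr among them, and Alas2 lower, where 10.5% of all genes were called in either direction. It called no fibroblast or B cell marker. Groups did not overlap for 8 T cell and 3 macrophage markers, all higher (8.87% of all genes), and 5 endothelial markers, all lower (8.31%). The part of these cell types in the levels of the replication genes was not tested.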
